A study of Mus musculus with 6 samples.

Results

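The genes described here are tied to the chain of signals that holds resting oocytes dormant or starts their growth. They are the ligand Kitl, its receptor Kit, the kinase Akt1, the mTOR regulators Tsc1, Tsc2 and Rptor, the transcription factor Foxo3, and the cell cycle inhibitor Cdkn1b. The transcription factor Foxo1 is included beside them, though it acts mainly in granulosa cells. All 9 were chosen by gene name. The array carries 31693 distinct names, some of which matched no RefSeq gene, and all 9 of these genes had at least 1 probe under their own name. That gave 11 probes in all of 39429, with 2 probes each for Foxo1 and Cdkn1b. All 11 passed the filter on dim probes, which kept the 24415 probes detected above background on every array of 1 genotype or both.

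Ovaries came from female C57BL/6J mice aged 20 weeks, either wild type (3 samples) or with a knockout of selenium-binding protein 1 (3 samples; SeBP1 in the labels, gene symbol Selenbp1). Total RNA of each ovary sample was labelled with Cy3 and read on 1 single-colour Agilent whole-genome array. The deleted part of Selenbp1, the breeding of the controls and the stage of the oestrous cycle are not given in the labels, and nothing there says that each array is a separate animal. The p-values therefore measure the spread between these samples, which may in part be technical.

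In the mammalian ovary most oocytes rest in primordial follicles, each wrapped in a few flat pregranulosa cells. Granulosa cells make KIT ligand, which binds the receptor tyrosine kinase KIT on the oocyte and on theca cells. KIT activates PI3K and then AKT, which phosphorylates FOXO3 so that it leaves the oocyte nucleus, and which relieves the brake that the TSC1-TSC2 complex puts on mTOR complex 1. In mouse oocytes loss of Foxo3, Tsc1 or Tsc2, and likewise loss of Cdkn1b, is known to start the growth of the whole resting pool too early. FOXO1 acts mainly in granulosa cells of growing follicles. Much of this control works through phosphorylation and nuclear export, which an RNA measurement does not see.

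Values below are log2 processed intensity minus the 75th percentile of the same array, so that 0 is the level of that percentile. Probes differ in how brightly they hybridise, so the levels of members were compared between arrays for 1 probe at a time. The summed levels of marker lists given further on add linear signals over different probes, so bright probes weigh most in them. The 6 probes whose signal varied most within the genotypes carry the pattern described further on, and the first 30 bases of each 60-base probe are shown, 5′ to 3′, with the mm9 position of the whole probe.
Kitl (chr10:99558962-99559021, + strand): tcttcagtcacaacctgcagcctgtcgtta
Kit (chr5:76052394-76052453, + strand): gtcaggtacttaaggggccacaccattgag
Foxo1 probe 1 (chr3:52150183-52150242, + strand): ttcggaatgacctcatggatggagatacct
Foxo1 probe 2 (chr3:52153289-52153348, + strand): ttctgggagaatgttcgctttctggtctat
Cdkn1b probe 1 (chr6:134873606-134873665, + strand): attagccaagcaaccataagactctagtca
Cdkn1b probe 2 (chr6:134875424-134875483, + strand): gtgcttaaaaggttgcatactgagccaagt
The paired probes of Foxo1 and of Cdkn1b read different stretches of the same gene. Their place in exons and untranslated regions was not worked out here, since no annotation of that build was used.

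The arrays lay on 2 slides, with wild type replicates 1 and 2 on slide 1 and wild type replicate 3 with all 3 knockouts on slide 2. The share of spots well above background ran from 61.6%, in wild type replicate 3, to 69.3%. Repeat spots of 1 probe also scattered most on that array, with a median CV of 5.30% against 1.92% to 2.55% on the others. Selenbp1, the targeted gene, was at 2.68, 2.52 and 2.59 in wild type and at -0.11, 0.025 and -0.37 in the knockouts. Where the probe lies relative to the deletion is not given. Selenbp1 fell by 2.75 on the log2 scale (SE 0.13, limma, adjusted p = 0.0104). It was the only probe called at an adjusted p under 0.05, which is 0.00410% of the probes tested, and its call was lost in 8 of 17 alternative settings (adjusted p = 0.0792 in limma with slide as a block). The unadjusted p was under 0.05 for 966 probes (3.96%), and the genotypes did not overlap in 8.58%. All 16 oocyte markers and all 12 granulosa markers looked up passed the filter.

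None of these genes was called different between the genotypes in whole-ovary RNA, which mixes resting oocytes with all other cells of the ovary. Of the 11 probes 0 passed the threshold (against 0.00410% of all probes), 0 had an unadjusted p under 0.05 (against 3.96%), and the genotypes overlapped in all 11 (no overlap in 8.58% of all probes). The median log2 difference, knockout minus wild type, was 0.046 over the 11 probes and -0.017 over all kept probes, with 6 members higher and 5 lower in the knockout mean. The smallest unadjusted p among them was 0.281, for Foxo3 (limma, adjusted p = 1.00). With wild type replicate 3 left out, 0 of the 11 were called (0.0778% of all probes were) and 0 had an unadjusted p under 0.05 (against 6.39%). With slide as a block 0 of the 11 were called, as were 0 of all probes, and 3 had an unadjusted p under 0.05 (against 9.78%), all read against that 1 array. The 95% intervals were wide for some members and narrow for others.

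**Figure D1:**
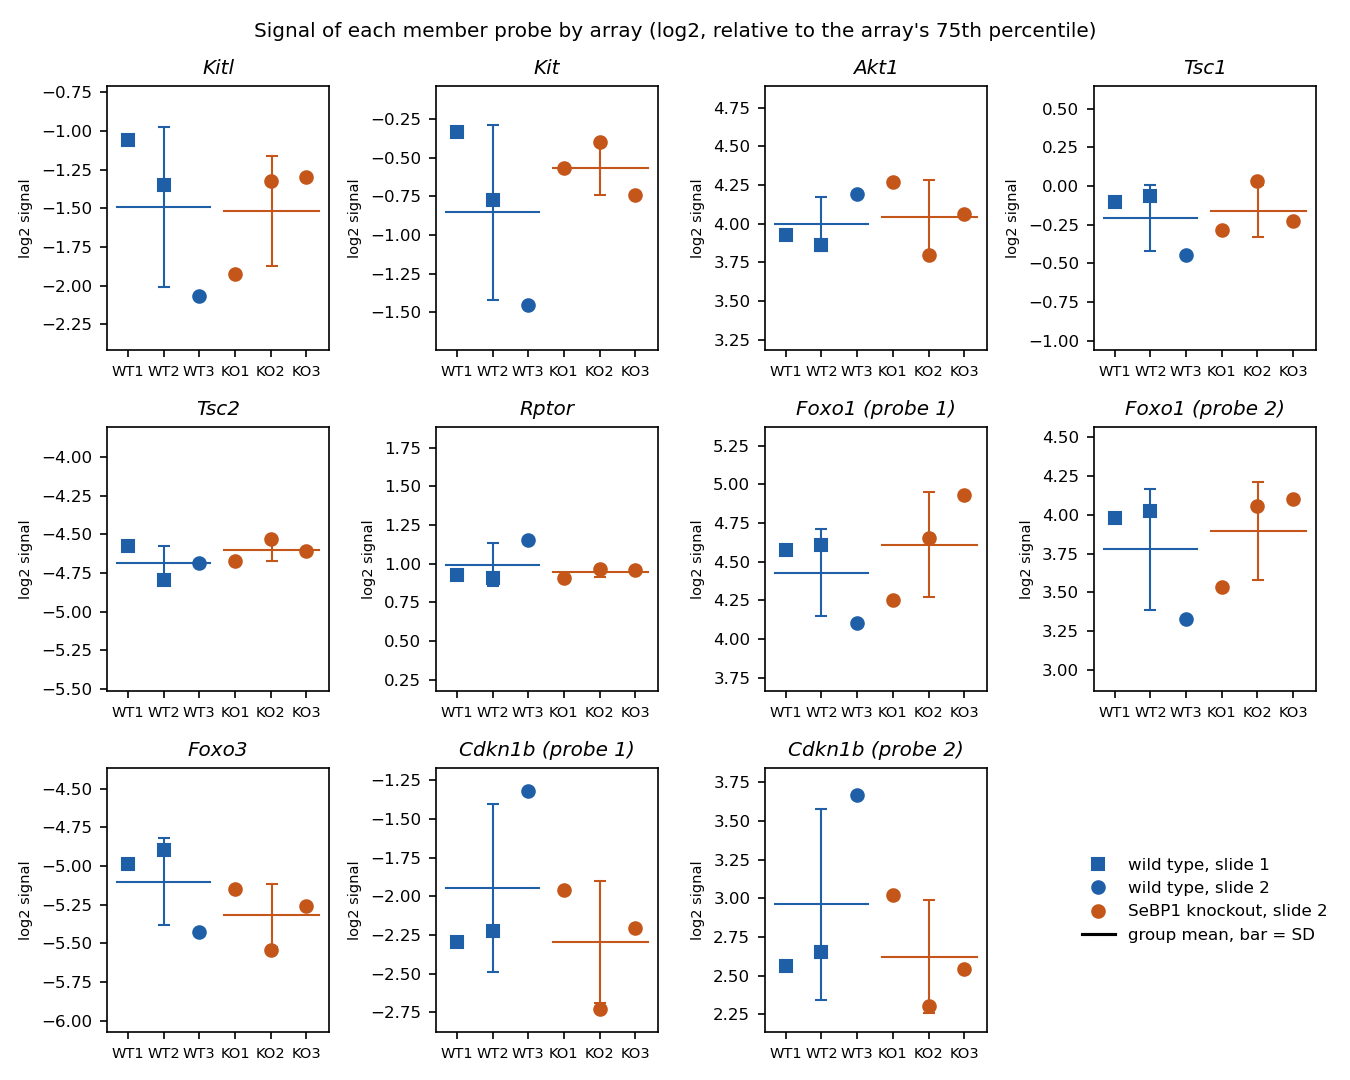
Log2 signal of each of the 11 member probes (y axis, relative to the 75th percentile of the array, with the same span in every panel) on the 6 arrays (x axis: WT, wild type; KO, SeBP1 knockout). Squares are slide 1 and circles slide 2, horizontal lines are group means and bars are SDs (n = 3). Wild type replicate 3 has the lowest Kitl (-2.07), Kit (-1.45) and Foxo1 (4.10 and 3.33) and the highest Cdkn1b (-1.32 and 3.67), and Tsc2 and Rptor vary least.

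Kitl encodes the ligand at the head of the chain. In the order of the replicate numbers, used throughout, its signal was -1.06, -1.35 and -2.07 in wild type and -1.93, -1.32 and -1.30 in the knockout. One array of each genotype was low, wild type replicate 3 and knockout replicate 1, and the other 4 lay between -1.35 and -1.06. The means were -1.49 ± 0.52 (SD, n = 3) and -1.52 ± 0.36 (SD, n = 3), a log2 difference of -0.025 (SE 0.30, limma, adjusted p = 1.00). The ratio of knockout to wild type was 0.983, with a 95% interval of 0.594 to 1.63. A limma fit with slide as a block rests on slide 2, where wild type replicate 3 is the only control, and gave 0.55 (adjusted p = 0.624). Leaving that array out gave -0.31 (limma, adjusted p = 0.974).

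Kit, the receptor, was at -0.33, -0.78 and -1.45 in wild type and at -0.57, -0.40 and -0.74 in the knockouts. All 3 knockouts lay between the highest and the second wild-type array, and wild type replicate 3 stood below the rest. The log2 difference was 0.28 (SE 0.28, limma, adjusted p = 1.00), a ratio of 1.22 with a 95% interval of 0.757 to 1.96. The SD was 0.56 in wild type and 0.17 in the knockout. Without wild type replicate 3 the difference was -0.016. The slide-blocked fit gave 0.88 (limma, unadjusted p = 0.0115, adjusted p = 0.363), in a fit where 9.78% of all probes had an unadjusted p under 0.05.

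Akt1, the kinase that carries the PI3K signal, stood at 3.93, 3.86 and 4.19 in wild type and at 4.27, 3.80 and 4.06 in the knockouts. The 2 brightest arrays were wild type replicate 3 and knockout replicate 1, one of each genotype. The log2 difference was 0.050 (SE 0.16, limma, adjusted p = 1.00), and the interval of the ratio ran from 0.790 to 1.36. With slide as a block it was -0.15.

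The TSC1-TSC2 complex switches off the small GTPase that drives mTOR complex 1, and Rptor encodes the scaffold raptor of that complex. Tsc1 was at -0.10, -0.064 and -0.45 in wild type and at -0.28, 0.033 and -0.22 in the knockouts. Its log2 difference was 0.046 (SE 0.15, limma, adjusted p = 1.00), or 0.29 with slide as a block and -0.076 without wild type replicate 3, and the interval of the ratio ran from 0.799 to 1.33. Wild type replicate 3 was again the lowest array, though the span over all 6 was only 0.48.

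Tsc2 gave a dim signal, 51.0 to 73.6 intensity units, that was nonetheless well above background on all 6 arrays. It was at -4.58, -4.79 and -4.68 in wild type and at -4.67, -4.53 and -4.61 in the knockouts. These 6 values span 0.27, and only 11.6% of kept probes had a smaller SD within the genotypes. The log2 difference was 0.081 (SE 0.11, limma, adjusted p = 1.00), and the interval of the ratio ran from 0.883 to 1.27. Rptor was at 0.92, 0.91 and 1.15 in wild type and at 0.91, 0.97 and 0.96 in the knockouts. Its 3 knockouts lay within 0.059 of each other, and wild type replicate 3 was the single high array. The log2 difference was -0.051 (SE 0.11, limma, adjusted p = 1.00), or -0.21 with slide as a block and 0.028 without wild type replicate 3, and the interval of the ratio ran from 0.802 to 1.16.

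Foxo1, the forkhead factor of granulosa cells, was bright on both of its probes. Probe 1 stood at 4.58, 4.61 and 4.10 in wild type and at 4.25, 4.65 and 4.93 in the knockouts. Probe 2 stood at 3.98, 4.03 and 3.33 in wild type and at 3.53, 4.06 and 4.10 in the knockouts. Both probes ranked wild type replicate 3 lowest, knockout replicate 1 next and knockout replicate 3 highest. The log2 differences were 0.18 (SE 0.22) and 0.12 (SE 0.25), both with an adjusted p of 1.00 in limma, and the intervals of the ratio ran from 0.784 to 1.64 and from 0.718 to 1.64. With slide as a block they were 0.51 and 0.57, and without wild type replicate 3 they were 0.020 and -0.11.

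Foxo3, the forkhead factor that keeps the oocyte dormant, was read by a probe close to the detection limit. Its signal was 55.4, 53.2 and 30.5 intensity units in wild type and 46.2, 32.0 and 43.4 in the knockouts. It was well above background on 2 of 3 wild-type arrays and on all 3 knockouts, and it passed the filter through the knockouts. In log2 it was at -4.99, -4.90 and -5.42 against -5.15, -5.54 and -5.26. Wild type replicates 1 and 2 were the 2 highest arrays. The log2 difference of -0.22 (SE 0.18) was not called (limma, adjusted p = 1.00), and the interval of the ratio ran from 0.634 to 1.17. It was 0.11 with slide as a block and -0.38 without wild type replicate 3 (limma, unadjusted p = 0.0547, adjusted p = 0.790).

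Cdkn1b encodes p27, which blocks cyclin-dependent kinases and is a known target of FOXO factors. Probe 1 was at -2.30, -2.22 and -1.32 in wild type and at -1.96, -2.73 and -2.21 in the knockouts. Probe 2 was at 2.56, 2.65 and 3.67 in wild type and at 3.02, 2.31 and 2.54 in the knockouts. On both probes wild type replicate 3 was highest, knockout replicate 1 second and knockout replicate 2 lowest. The log2 differences were -0.35 (SE 0.32) and -0.34 (SE 0.34), both with an adjusted p of 1.00 in limma, and the intervals of the ratio ran from 0.459 to 1.34 and from 0.449 to 1.39. Without wild type replicate 3 the differences were -0.039 and 0.017. The slide-blocked fit gave -0.98 and -1.05 (limma, unadjusted p = 0.0218 and 0.0130, adjusted p = 0.427 and 0.374).

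**Figure D2:**
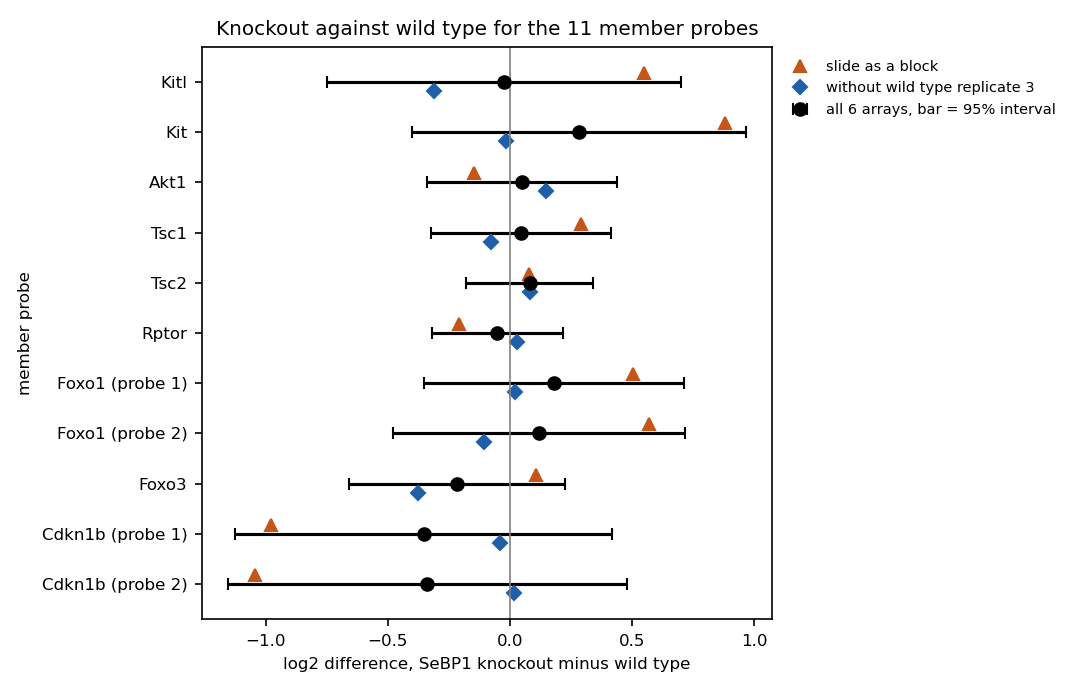
Log2 difference, SeBP1 knockout minus wild type (x axis), for the 11 member probes (y axis). Black points with bars are the limma estimates from all 6 arrays with 95% intervals, triangles the estimates with slide as a block and diamonds those without wild type replicate 3. All 11 intervals include 0, and for Kit the 3 estimates are 0.28, 0.88 and -0.016.

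Within a genotype the members varied to very different degrees. The pooled SD within genotypes had a median of 0.31 over the 11 probes and of 0.19 over all kept probes. Cdkn1b, Kitl and Kit were the most variable. Their SDs of 0.50 and 0.47, 0.44 and 0.42 were above those of 90.5% and 89.0%, 87.0% and 84.7% of kept probes. Foxo1 followed at 0.36 and 0.31, and Rptor (0.099) and Tsc2 (0.092) were the steadiest.

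Wild type replicate 3 stood apart for several members. Against the mean of the other wild types it was lower by log2 for Kit at -0.90, Kitl at -0.86, Foxo1 at -0.68 and -0.49, Foxo3 at -0.48 and Tsc1 at -0.37, and higher for Cdkn1b at 1.06 and 0.94. The median size of this deviation was 0.49 over the members and 0.23 over all kept probes. For Cdkn1b it was larger than in 95.7% and 94.2% of kept probes. Knockout replicate 1 lay on the same side for 4 of these genes: relative to the mean of all 6 arrays it was at -0.42 for Kitl, at -0.27 and -0.31 for Foxo1, at -0.10 for Tsc1 and at 0.16 and 0.23 for Cdkn1b. It lay on the other side for Kit, at 0.15, and for Foxo3, at 0.060.

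Markers of ovarian cell types also varied between these arrays. In whole-ovary RNA, fewer cells of a type cannot be told apart from less RNA per cell. The 12 corpus luteum markers, relative to the mean of each gene, had a median of 0.89 in wild type replicate 3, 0.50 in knockout replicate 1 and -1.20 in knockout replicate 2, the arrays where Cdkn1b was highest, second and lowest. On the remaining arrays that median lay between 0.057 and 0.15. Between genotypes 10 of the 12 luteal markers had a lower mean in the knockout, as did 13267 of all 24415 kept probes (limma, adjusted p = 1.00 for each of the 12). The median difference of the 12 was -0.46, or -1.22 with slide as a block and -0.20 without wild type replicate 3. The luteal list includes Hsd3b1, whose spot was left out on wild type replicates 1 and 2. Without it the summed luteal level was 167 to 230 in wild type and 60.4 to 227 in the knockout, in multiples of the 75th percentile. The 12 granulosa markers had a median of -0.54 in wild type replicate 3, -0.25 in knockout replicate 1 and 0.60 in knockout replicate 3, the arrays where Foxo1 was lowest, second lowest and highest. Their summed level was 184 to 306 in wild type and 216 to 356 in the knockout. The 2 lists share Inhba.

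Each of the 16 oocyte markers had a lower mean in the knockout, as did 13267 of all 24415 kept probes. These markers rose and fell together over the arrays, so they are not 16 separate observations. The median of their log2 differences was -0.23, and 0 had an unadjusted p under 0.05 (limma, adjusted p = 1.00 for each). That median was -0.47 without wild type replicate 3 and 0.30 with slide as a block. By array the oocyte median was 0.34, 0.38 and 0.38 in wild type replicates 1 and 2 and knockout replicate 2, and -0.40, -0.23 and -0.47 in wild type replicate 3 and knockout replicates 1 and 3. The summed oocyte level was 45.5 to 83.2 in wild type and 44.4 to 83.0 in the knockout. Kitl was low on wild type replicate 3 and knockout replicate 1 of the oocyte-low arrays but not on knockout replicate 3, where it was at -1.30. The granulosa median was also lowest on wild type replicate 3 (-0.54) and knockout replicate 1 (-0.25). It was highest on knockout replicate 3 (0.60), whereas Kitl was highest on wild type replicate 1 (-1.06). Kit was lowest on wild type replicate 3 and was not low on the other oocyte-low arrays. The 8 theca and interstitial markers had a median of -0.44 on wild type replicate 3 and of 0.33 on knockout replicate 1. Their summed level was 95.6 to 133 in wild type and 48.3 to 127 in the knockout. That sum, unlike the median, was highest of all 6 arrays on wild type replicate 3. These markers share Lhcgr, Star and Cyp11a1 with the luteal list. Of the remaining lists, 7 of 7 smooth muscle markers were lower in the knockout mean. Their median was -0.41 (slide-blocked, -0.064; without wild type replicate 3, -0.53), and their summed level was 44.9 to 57.7 in wild type and 31.9 to 52.7 in the knockout. In limma 2 of the 7 had an unadjusted p under 0.05 (against 3.96% of all kept probes). The genotypes did not overlap in 2 of the 7 (against 8.58%). For the surface epithelium 9 of 10 were lower in the knockout mean (median -0.33, slide-blocked -0.098, without wild type replicate 3 -0.43). In limma 1 of the 10 had an unadjusted p under 0.05 (against 3.96% of all kept probes). The genotypes did not overlap in 1 of the 10 (against 8.58%). Their summed level was 48.2 to 67.2 in wild type and 36.8 to 56.3 in the knockout. The part of these cell types in the levels of the members was not tested.

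Mast cells and melanocytes also carry Kit, and several of their markers lay near the detection limit. Of 11 mast cell markers 5 did not pass the filter, among them the IgE receptor genes Fcer1a and Ms4a2. The proteases Cpa3, Mcpt4 and Cma1 lay between -6.15 and -4.20, were each well above background on 2 of 3 wild-type arrays and passed the filter through the knockouts. On wild type replicate 3 Mcpt4 (-5.87) and Cma1 (-6.15) lay under the lowest signal that was well above background on that array (-5.71), so their order there is not measured. The other kept markers were not lowest on that array, which was at -1.83 for the protease gene Tpsb2 (lowest -2.17, wild type replicate 1), at -2.97 for Gata2 (lowest -4.04, knockout replicate 2) and at 2.27, the highest, for the histamine enzyme gene Hdc. The median of the 6 kept markers was -0.52 there and between -0.13 and 0.32 elsewhere. Their summed level was 2.23 to 5.27 in wild type, highest in replicate 3, and 2.49 to 2.66 in the knockout. On wild type replicate 3 Hdc, at 2.27, was by far the brightest of the 6 and made up most of that sum. The part of mast cells in the level of Kit was not tested. Of 7 melanocyte markers 3 did not pass (Dct, Tyrp1 and Mlana), and the rest summed to 0.845 to 1.11 in wild type and 0.849 to 1.097 in the knockout. Endothelial markers, from cells that also make KIT ligand, were highest in knockout replicate 1 (median 0.47), where Kitl was among the 2 lowest arrays. They summed to 5.47 to 6.89 in wild type and 5.93 to 6.88 in the knockout.

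**Figure D3:**
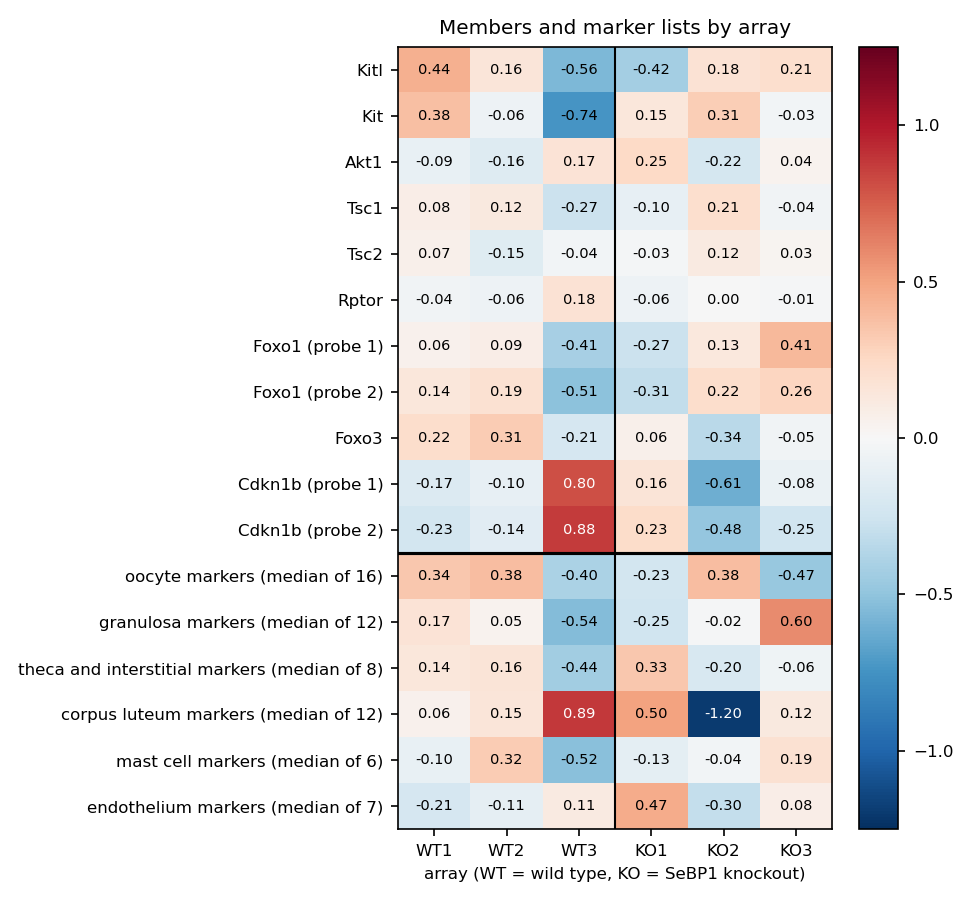
Log2 signal minus the mean of the same probe over the 6 arrays (colour and printed number) for the 11 member probes and, under the line, the median of each marker list (rows), by array (columns: WT, wild type; KO, SeBP1 knockout). Cdkn1b and the corpus luteum median are both highest in WT3 (0.80 and 0.88 for the probes, 0.89 for the list) and lowest in KO2 (-0.61 and -0.48, and -1.20), while Foxo1 and the granulosa median are both lowest in WT3 and highest in KO3.

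The genes whose pattern over the 6 arrays was most like that of Kitl, by root mean square difference of mean-centred log2 values, were Sec31b (0.063), Hsd11b2 (0.066), which encodes the enzyme that inactivates glucocorticoids, and Ccdc173 (0.067). The median over all kept probes was 0.39. For Kit they were Dock2 (0.050), which encodes an activator of Rac in blood cells, Maneal (0.091) and Cabyr (0.11), against a median of 0.40. On wild type replicate 3 Cabyr (-5.84) lay under the lowest signal that was well above background there (-5.71). Dock2 (-5.70) lay close to that limit. The depth of their dip on that array, where Kit was lowest, is therefore uncertain. With 6 arrays and 24415 probes, close matches are easily found.

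Because these genes varied most between arrays, the 250 bases before the first listed start of Kitl, Kit, Foxo1 and Cdkn1b are shown (RefSeq, GRCm38.p6, strand of the gene, 5′ to 3′). Capitals mark matches to the motifs searched on both strands: the FOXO core GTAAACA, the GC box GGGCGG, the TATA box TATAAA, the CCAAT box CCAAT, the cyclic AMP response element TGACGTCA and the E-box CACGTG.
Kitl (chr10:100015571-100015820, + strand): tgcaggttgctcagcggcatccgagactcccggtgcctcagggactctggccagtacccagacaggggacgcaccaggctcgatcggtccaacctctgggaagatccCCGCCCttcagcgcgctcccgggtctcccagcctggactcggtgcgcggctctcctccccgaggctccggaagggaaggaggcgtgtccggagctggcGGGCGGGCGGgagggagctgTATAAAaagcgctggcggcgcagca
Kit (chr5:75574737-75574986, + strand): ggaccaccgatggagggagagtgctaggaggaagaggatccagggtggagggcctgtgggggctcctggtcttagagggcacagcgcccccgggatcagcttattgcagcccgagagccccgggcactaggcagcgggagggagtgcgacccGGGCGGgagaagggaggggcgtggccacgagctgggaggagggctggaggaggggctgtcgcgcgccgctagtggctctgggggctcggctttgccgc
Foxo1 (chr3:52268087-52268336, + strand): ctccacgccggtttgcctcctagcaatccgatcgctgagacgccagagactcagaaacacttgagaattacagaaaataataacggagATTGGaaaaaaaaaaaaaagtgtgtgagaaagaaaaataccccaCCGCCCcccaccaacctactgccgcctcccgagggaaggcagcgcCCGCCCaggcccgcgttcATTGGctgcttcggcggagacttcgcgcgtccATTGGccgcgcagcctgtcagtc
Cdkn1b (chr6:134920151-134920400, + strand): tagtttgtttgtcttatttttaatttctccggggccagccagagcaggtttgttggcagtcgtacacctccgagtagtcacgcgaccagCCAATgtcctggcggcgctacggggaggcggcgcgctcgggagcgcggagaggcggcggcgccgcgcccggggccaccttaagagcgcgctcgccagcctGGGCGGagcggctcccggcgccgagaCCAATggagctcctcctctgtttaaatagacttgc
All 4 promoters held at least 1 GC box, which 32.7% of all 32851 promoter windows hold. In Kitl 2 of its 3 GC boxes overlapped, and a TATA box began 25 bases before the start (in 12.4% of windows). Foxo1 held 3 CCAAT boxes and Cdkn1b 2 (in 33.8% of windows). The FOXO core, present in 3.17% of windows, was found near none of the 4 starts, and among the 9 genes it was found only before 1 of the 2 listed starts of Akt1. A missing match says only that these letters are not in this window.

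The rest of the pathway was read from 6 lists of genes, 133 in all, of which 121 had a kept probe. In none was a member called. Over the lists together 58 genes were higher and 63 lower in the knockout mean, 4 had an unadjusted p under 0.05 (3.31%, against 3.96% of all probes), and the genotypes did not overlap in 11 (9.09%, against 8.58%). The 4 were Ddit4, Ccnd2, Igfbp1 and Txnip. The 11 included Ddit4, Ccnd2, Txnip, Akt1s1 and Foxl2 and, named only after their values were seen, Eif4ebp2 and Prkaa1. The median log2 difference was -0.0067. In limma every one of these genes had an adjusted p of 1.00.

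Among 17 measured genes of the PI3K-AKT core, 6 were higher and 11 lower. The median was -0.047 (slide-blocked, 0.067; leaving out 1 array, -0.060 to 0.014). Irs2, an adaptor of insulin signalling, was at -0.47 (SE 0.24), or -0.67 without wild type replicate 3 and -0.064 with slide as a block. Pik3r2, a regulatory subunit of PI3K, was at 0.22 (SE 0.12), or 0.067 with slide as a block.

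Of 21 genes of the mTOR complexes and their outputs, 7 were higher and 14 lower. The median was -0.019 (slide-blocked, -0.088; leaving out 1 array, -0.064 to -0.021). Rps6 in this list lacked a value on wild type replicates 1 and 2. Ddit4, an inducible inhibitor of mTOR complex 1 that acts through the TSC complex, was at 4.62, 4.21 and 4.18 in wild type and at 4.80, 4.66 and 5.26 in the knockouts. All 3 knockouts lay above all wild types, with a log2 difference of 0.57 (SE 0.20, limma, unadjusted p = 0.0288, adjusted p = 1.00). Akt1s1, which encodes the raptor-binding inhibitor PRAS40, was at -0.19 (SE 0.11) with no overlap either. Mtor itself, named for its role, was at -0.0067 (SE 0.13), and its genotypes overlapped.

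Adaptors and kinases downstream of KIT were split evenly, with 11 of 23 higher and 12 lower and a median of -0.011 (leaving out 1 array, -0.063 to 0.051). Sh2b2, an adaptor, was at -0.19 (SE 0.35), or -0.67 with slide as a block and 0.047 without wild type replicate 3.

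Other FOXO factors and FOXO targets had 12 higher and 9 lower of 21 measured. Their median was 0.063 (slide-blocked, 0.20; leaving out 1 array, -0.016 to 0.10). Foxo4 was not well above background on all 3 arrays of either genotype and was not tested. Txnip, a target that FOXO factors share with glucose-sensing factors, was at 3.96, 3.66 and 3.80 in wild type and at 3.15, 3.19 and 3.07 in the knockouts, a log2 difference of -0.67 (SE 0.12, limma, unadjusted p = 0.000917, adjusted p = 1.00). Ccnd2, the granulosa cyclin, went the other way, at 3.11, 3.37 and 3.11 against 3.55, 3.77 and 3.44, a difference of 0.39 (SE 0.14). Igfbp1, a liver target of FOXO1, was at 0.74 (SE 0.26) at a dim signal, with overlap between genotypes.

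The other inhibitors and partners of p27 had 12 of 13 members higher in the knockout mean, a median of 0.092 (slide-blocked, 0.24; 0.039 without wild type replicate 3, the lowest of a range up to 0.15 leaving out 1 array), against 45.7% of all kept probes higher. None had an unadjusted p under 0.05. Cdkn1a, which encodes p21, was at -0.27, -0.69 and -0.39 in wild type and at 1.12, -1.48 and 0.54 in the knockouts. Its knockouts thus spanned the wild types on both sides. The difference was 0.52 (SE 0.64), and it was -0.016 without knockout replicate 1 and 1.29 without knockout replicate 2. Cdkn1c, which encodes p57, was at 0.55 (SE 0.24), with overlap between genotypes. It was 0.85 with slide as a block and 0.40 without wild type replicate 3 (leaving out 1 array, 0.34 to 0.75). Ccne1, a cyclin partner of CDK2, was at 0.25 (SE 0.14).

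Other regulators of primordial follicles had 11 higher and 16 lower of 27 measured. Their median was -0.033 (slide-blocked, 0.19; leaving out 1 array, -0.12 to 0.013). Sohlh1 and Sohlh2, transcription factors of resting oocytes, were at -0.50 (SE 0.29) and -0.28 (SE 0.16). With slide as a block they were at 0.048 and -0.016, and without wild type replicate 3 at -0.77 and -0.42. The chemokine receptor gene Cxcr4 was at -0.44 (SE 0.31), or -0.75 with slide as a block and -0.28 without wild type replicate 3. Foxl2, the identity factor of granulosa cells, was at 3.29, 3.25 and 3.31 in wild type and at 3.00, 3.21 and 3.08 in the knockouts. Its genotypes did not overlap, with a difference of -0.19 (SE 0.10, limma, adjusted p = 1.00). The granulosa list, which includes it, had a median difference of 0.12, or -0.067 without wild type replicate 3 and 0.65 with slide as a block.

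**Figure D4:**
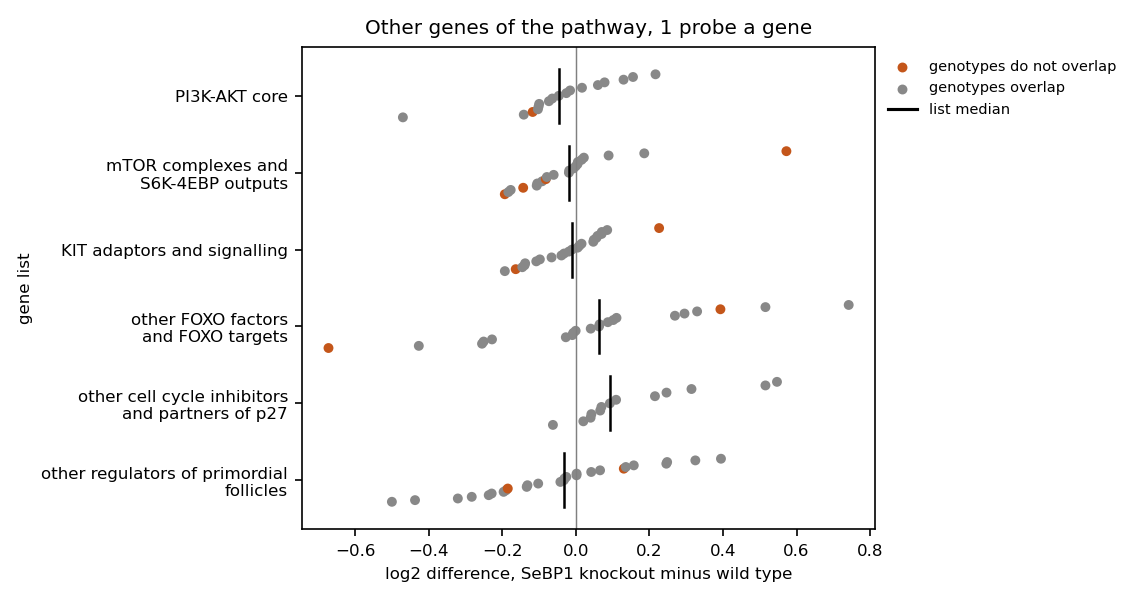
Log2 difference, SeBP1 knockout minus wild type (x axis), of each measured gene in the 6 pathway lists (y axis), 1 point a gene, with the median of each list as a black bar. Orange points are the 11 genes whose genotypes did not overlap. The list medians lie between -0.047 and 0.092, and the points farthest out are Igfbp1 at 0.74 and Txnip at -0.67.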

How the data were processed

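Per the file headers, the scanner intensity values were made with Agilent Feature Extraction 10.7.1.1. It subtracted background, removed spatial trends and replaced low values, with no scaling between arrays. The deposited series values had the same median on every array (119.765), so they had been scaled between arrays. They were used only as an alternative setting. Here the scanner's processed intensity was turned into log2 and the 75th percentile of each array's non-control spots was subtracted. Control and outlier spots were left out, and spots of 1 probe were averaged. The filter asked for detection well above background on all 3 arrays of either genotype. Knockout and wild type were compared over all 24415 kept probes in limma 3.58.1 (R 4.3.3, lmFit and eBayes, two-sided, genotype only), with Benjamini-Hochberg adjustment and a threshold of 0.05. The fit was tested on simulated data with large changes in some probes, the same noise for every probe and no slide effect. That test does not cover differences as small as those of the members. Other backgrounds, scalings, filters, blocks and single arrays left out were tried. The number of arrays limits the precision.

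The members, gene lists and tests were chosen with earlier results of these data known. From each pathway list the text names the 2 genes of smallest unadjusted p and the 2 of largest absolute difference, by the probe of highest mean signal; some genes this rule names are not reported here. Where same-numbered arrays were set side by side, their deviations from the group means correlated at -0.33, 0.30 and -0.027. With so few arrays in each group, these values cannot decide whether samples were paired. The replicate numbers were not taken as pairs.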

Additional observations from a re-analysis of the deposited data

How the results depend on the processing

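In each of the 17 alternatives 0 of the 11 member probes were called; Foxo3 dropped out of the fit that asks for detection on all 6 arrays. The count over all probes, 1 in the main setting, was 0 with no filter, with slide as a fixed block, within slide 2 and with a replicate block, and 0 to 19 leaving out 1 array (19 without wild type replicate 3). It stayed at 1 with slide as a random block. The call of Selenbp1 was lost in 8 of the 17. The replicate block left the member differences as they were, as it must when each block holds 1 array of each genotype. The replicate numbers were not taken as pairs. Signs of member differences turned as follows, and the cause was not tested. They were not all small: Kit (0.28 in the main setting) and Cdkn1b probe 2 (-0.34) turned without wild type replicate 3. Akt1 was at -0.026 after quantile normalization. With slide as a block, and equally within slide 2, Akt1 was at -0.15, Foxo3 at 0.11 and Kitl at 0.55; Kitl was at 0.10 with slide as a random block. With array weights Foxo1 probe 2 was at -0.040, Rptor at 0.011 and Tsc1 at -0.094. Tsc2, a dim probe, was at -0.035 after normexp background correction. Leaving out 1 array at a time gave -0.063 to 0.17 for Akt1, -0.54 to 0.017 for Cdkn1b probe 2, -0.11 to 0.30 for Foxo1 probe 2, -0.016 to 0.54 for Kit, -0.31 to 0.19 for Kitl, -0.095 to 0.028 for Rptor and -0.076 to 0.12 for Tsc1. Cdkn1b probe 1 and Foxo1 probe 1 kept their sign in all 17.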
